A study of Homo sapiens with 17 samples.

Results

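The cyclic AMP phosphodiesterases and effectors described here are 10 genes, PDE4A, PDE4B, PDE4D, PDE7A, PDE8A, PDE11A, RAPGEF3, PRKAR1A, PRKAR2B and PRKACB, of the 60662 genes in the deposited count table. They were brought together because PDE4D and PDE11A differed in opposite directions between cultures treated with progesterone (P4) and their vehicle controls. The comparisons of the members with the P4 treated cultures are therefore described without a test, and nothing is read from counts of their calls. The comparisons among cultures without P4 were tested, but those with vehicle control reuse its cultures from the comparison behind the choice and are not independent of it, and for PDE4D and PDE11A they are given without a test. Nap vehicle against control shares no culture with that choice. Reads were counted per gene in 17 cultures of Ishikawa cells, a human endometrial adenocarcinoma line with epithelial features with treatments of 24 h. Control cultures (n = 3) had medium alone, Nap vehicle cultures (labelled Vehicle Nap, n = 2) had the vehicle Nap, vehicle control cultures (labelled Vehicle Nap EtOH, n = 3) had 70% ethanol as vehicle, and P4 treated cultures (labelled Vehicle Nap P4, n = 3) had Nap with P4. All cultures grew in medium with charcoal-stripped serum, which is low in steroids. What Nap stands for is not given, and ethanol is named in the labels for the vehicle control group only. The figure legends of the study give 10 µg/ml P4 for the sequenced cultures, whereas its cell culture methods and the label protocol list 0.1 and 1.0 mg/ml. The other 6 cultures received recombinant PSAT1 with or without P4, but their titles and their column names in the table contradict each other, so they enter no comparison here.

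Cyclic AMP is made by adenylyl cyclases and broken down by phosphodiesterases, so its level in a cell depends on both. PDE4, PDE7 and PDE8 enzymes are specific for cyclic AMP, whereas PDE11A hydrolyses cyclic AMP and cyclic GMP. Within the cell, cyclic AMP binds the regulatory subunits of protein kinase A (PKA), encoded by PRKAR1A and PRKAR2B among others, and so releases catalytic subunits such as PRKACB, which phosphorylate CREB and other targets. It also binds EPAC1, the product of RAPGEF3, an exchange factor that activates the small GTPases RAP1A and RAP1B. In the endometrium, cyclic AMP is best known for acting with P4 in the decidualisation of stromal cells.

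Library totals ran from 4999521 counts, in vehicle control replicate 1, to 19704493. A count of 0 would still allow between 0.156 and 0.574 CPM (counts scaled to the size of the library with its TMM factor), taking 3 counts as the limit, and this covers counting error only. Control replicate 2 stood apart from control replicates 1 and 3, with a chi-square per degree of freedom over genes of 16.8 and 20.6 against 5.02 between the other pair. All 6 listed epithelial markers averaged at least 1 CPM in every group, among them EPCAM at 172 to 215 CPM and CDH1 at 235 to 334 CPM. Between P4 treated and vehicle control 3 of the 6 fell by edgeR's test, KRT8 from 384 to 417 CPM to 220 to 278 CPM (log2 fold change -0.70), KRT18 (-0.34) and KRT19 (-0.35), while CDH1 rose (0.24) and EPCAM (0.07) and MUC1 (-0.89) were not called. The listed markers of endothelial and immune cells summed to at most 1.54 and 1.45 CPM, with CDH5 at 0 in all 11 grouped cultures and CD3E at 0 in 10 of them. The stromal list summed to 358 to 491 CPM in control, 355 to 492 CPM in Nap vehicle, 285 to 306 CPM in vehicle control and 80.0 to 134 CPM in P4 treated cultures. Most of this was COL1A2, a collagen chain, and COL1A1, another, measured 20.4 to 32.6 CPM over the grouped cultures. LUM and THY1 were at most 1.40 CPM in any grouped culture, and DCN and PDGFRB, which mark stromal fibroblasts, at most 0.323 CPM. Of the 6 stromal markers, 3 were tested between P4 treated and vehicle control, and all 3 fell. The progesterone receptor PGR was measured at 101 to 144 CPM in control and Nap vehicle, at 49.9 to 61.8 CPM in vehicle control and at 18.4 to 27.6 CPM in P4 treated cultures. The 3 stromal markers tested, PGR and the 3 keratins were lower in P4 treated than in vehicle control cultures. PGR and COL1A2 were already lower in vehicle control than in control, COL1A2 at 252 to 278 CPM against 326 to 464 CPM. The part of these differences in the results on the members was not tested. In bulk cultures, fewer cells of a type and less RNA per cell cannot be told apart.

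Levels of different genes were compared per kilobase of joined exons, as RPKM (CPM divided by the exon length in kilobases). In control cultures PRKAR1A was highest at 39.3 ± 3.06 RPKM (SD, n = 3), followed by PDE7A at 17.2 ± 0.647 RPKM and PRKACB at 7.45 ± 1.02 RPKM. PRKAR2B (4.32 RPKM), PDE8A (3.57 RPKM) and RAPGEF3 (2.91 RPKM) came next, and the ranges of neighbours in this trio overlapped, so their order was not resolved. PDE11A averaged 1.42 RPKM, PDE4A 0.824 RPKM and PDE4D 0.560 RPKM, and PDE4B was lowest at 0.125 RPKM. In the P4 treated group the ranges of PRKAR1A (39.0 RPKM) and PDE7A (35.4 RPKM) overlapped, and RAPGEF3 came next at 26.5 RPKM. PDE4D, below PDE11A and PDE4A in control cultures, was above both in the P4 treated group at 2.55 RPKM, with PDE4A at 1.07 RPKM and PDE11A at 0.306 RPKM. Dividing by the longest transcript instead of the joined exons put PDE7A above PRKAR1A in the P4 treated group.

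**Figure D1:**
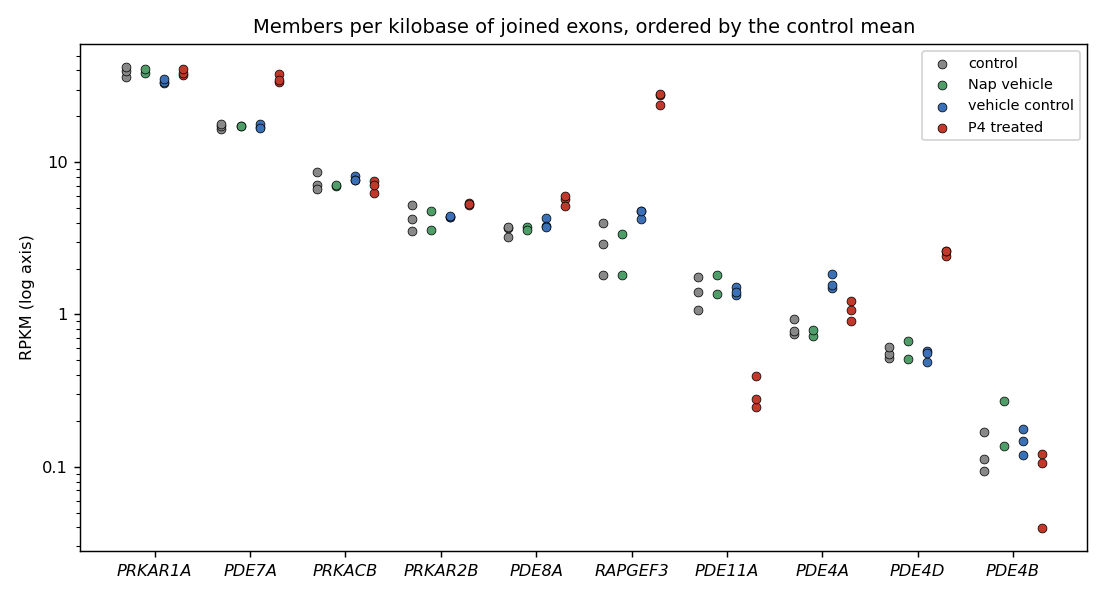
Level of the 10 members in RPKM (log axis) in 11 cultures, one point per culture, coloured by group and ordered by the control mean. PRKAR1A lies highest and PDE4B lowest in control cultures, and in P4 treated cultures RAPGEF3 and PDE4D lie above, and PDE11A below, the points of every other group.

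PDE7A made up most of the summed RPKM of the 6 phosphodiesterases, with a share of 72.6% in control, 69.1% in vehicle control and 78.6% with P4. PDE4D held 2.36%, 2.18% and 5.67% of that sum, and PDE11A held 5.98%, 5.72% and 0.686%. The sum itself was 23.7 ± 0.797 RPKM in control, 24.9 ± 0.378 RPKM in vehicle control and 45.0 ± 2.49 RPKM with P4. Of the 3 PKA subunits, PRKAR1A held 77.0%, 73.5% and 76.1% of their summed RPKM in the same groups. These are shares of transcript, and enzyme activity was not measured.

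Promoter sequence is shown for the members on which the results turn, namely PDE4A and PRKAR1A, which passed the test between vehicle control and control, and PDE4D, PDE11A and RAPGEF3, which differed most in the P4 treated cultures. RefSeq windows (GRCh38.p14) covered 250 bases before to 50 bases after each annotated start and were found for 9 of the 10 members, with 40 windows in all. Both strands were searched for the full cyclic AMP response element TGACGTCA, for its short form TGACG or CGTCA, which the full element contains, and for the short form of the steroid receptor element, AGAACA or TGTTCT. Of 35116 windows of all genes, 1.85% held the full element, 24.6% the short form and 14.8% the receptor short form. Each window below is written 5′ to 3′ on the strand of the gene, with these matches in capitals, and is 1 of 5 windows of PDE4A (chr19:10416523-10416822, plus strand), 1 of 5 of PRKAR1A (chr17:68512129-68512428, plus strand), 1 of 8 of PDE4D (chr5:59587576-59587875, minus strand), 1 of 4 of PDE11A (chr2:178072728-178073027, minus strand) and 1 of 3 of RAPGEF3 (chr12:47758831-47759130, minus strand).
PDE4A: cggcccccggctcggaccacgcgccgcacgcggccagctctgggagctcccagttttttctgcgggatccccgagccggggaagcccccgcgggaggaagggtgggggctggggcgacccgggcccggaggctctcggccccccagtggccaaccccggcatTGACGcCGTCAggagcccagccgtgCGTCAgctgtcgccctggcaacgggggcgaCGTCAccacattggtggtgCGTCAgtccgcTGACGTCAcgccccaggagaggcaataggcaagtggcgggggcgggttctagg
PRKAR1A: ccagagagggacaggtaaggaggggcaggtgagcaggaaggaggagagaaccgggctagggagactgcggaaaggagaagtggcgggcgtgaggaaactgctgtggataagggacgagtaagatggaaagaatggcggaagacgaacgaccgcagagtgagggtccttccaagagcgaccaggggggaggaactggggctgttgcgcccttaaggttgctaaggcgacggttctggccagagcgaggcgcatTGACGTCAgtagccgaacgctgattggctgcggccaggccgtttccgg
PDE4D: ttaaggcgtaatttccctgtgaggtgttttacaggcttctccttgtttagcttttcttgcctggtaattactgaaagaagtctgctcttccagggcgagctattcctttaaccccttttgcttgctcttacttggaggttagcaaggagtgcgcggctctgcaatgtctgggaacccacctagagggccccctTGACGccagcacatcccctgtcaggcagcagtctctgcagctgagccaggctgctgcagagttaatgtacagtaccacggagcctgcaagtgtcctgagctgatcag
PDE11A: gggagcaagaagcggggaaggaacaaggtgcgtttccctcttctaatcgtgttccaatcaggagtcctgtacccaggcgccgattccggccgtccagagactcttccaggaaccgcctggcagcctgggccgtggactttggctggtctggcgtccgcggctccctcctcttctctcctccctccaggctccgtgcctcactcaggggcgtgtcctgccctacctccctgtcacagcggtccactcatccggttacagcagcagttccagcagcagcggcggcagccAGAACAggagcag
RAPGEF3: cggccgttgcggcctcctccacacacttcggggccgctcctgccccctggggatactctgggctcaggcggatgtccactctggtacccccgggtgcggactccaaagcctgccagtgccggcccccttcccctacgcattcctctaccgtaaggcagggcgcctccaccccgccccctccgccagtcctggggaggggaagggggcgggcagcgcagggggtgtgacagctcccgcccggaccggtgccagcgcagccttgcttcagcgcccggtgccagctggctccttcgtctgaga

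The full element was present in 2 members, PDE4A and PRKAR1A, in 1 and 2 of their windows. The 2 PRKAR1A windows overlap and hold the same element. In the PDE4A window it began 3 bases before the annotated start and was accompanied by further short forms upstream, and in the PRKAR1A window it lay just after the start. The short form without the full element was found in 2 further windows of PRKAR1A and in 1 window each of PDE4D and PRKACB. The receptor short form was found in 8 windows, of PDE4B, PRKACB, PDE11A and PDE4D, and the full steroid receptor element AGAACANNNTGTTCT in 0 of the 40. The windows of RAPGEF3, PDE8A and PRKAR2B held none of these letters. These matches describe the letters in the windows and do not show that a factor bound there.

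PDE4D and PDE11A, the genes behind the choice of members, had similar levels in the 3 groups without P4 and moved apart in the P4 treated group. PDE4D, a cyclic AMP specific phosphodiesterase with many isoforms (chr5:58969038-60522120 on the minus strand, GRCh38), measured 8.45, 8.93 and 10.0 CPM in control, 8.33 and 10.9 CPM in Nap vehicle, 9.38, 7.95 and 9.16 CPM in vehicle control and 39.5, 42.8 and 42.5 CPM in P4 treated cultures. Every P4 treated culture lay above all 8 others, and the group mean was 41.6 ± 1.81 CPM (SD, n = 3) against 8.83 ± 0.767 CPM in vehicle control, a log2 fold change of 2.24 (SE 0.10) or 4.72-fold. PDE11A, which hydrolyses both cyclic nucleotides (chr2:177623252-178072755 on the minus strand), measured 13.1, 21.7 and 17.2 CPM in control, 16.7 and 22.4 CPM in Nap vehicle, 18.6, 16.5 and 17.2 CPM in vehicle control and 4.80, 3.00 and 3.43 CPM in P4 treated cultures. Every P4 treated culture lay below all 8 others, with a log2 fold change of -2.23 (SE 0.17) against vehicle control, or 4.69-fold lower. The annotation gives PDE11A a second identifier that shares 26.4% of its exon bases on the same strand, and that identifier had 0 counts in every library.

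RAPGEF3, which encodes the cyclic AMP sensor EPAC1 (chr12:47734367-47771040 on the minus strand), had the widest difference among the members. It measured 48.2, 22.0 and 35.2 CPM in control, 41.0 and 21.8 CPM in Nap vehicle, 58.2, 51.1 and 57.5 CPM in vehicle control and 287, 335 and 339 CPM in P4 treated cultures. The P4 treated cultures lay above all others, at a log2 fold change of 2.52 (SE 0.08) or 5.73-fold against vehicle control. Genes on the opposite strand cover 15.9% of the RAPGEF3 exon bases. Of these, the antisense AC004241.1 had 6 to 54 counts in any library and SLC48A1, which overlaps by 83 bases, had 267 to 2272. The strand setting of the counting is not given in the sources used here.

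PDE7A and PDE8A, both cyclic AMP specific, were also higher in the P4 treated cultures. PDE7A measured 123, 128 and 132 CPM in control, 127 and 128 CPM in Nap vehicle, 127, 132 and 124 CPM in vehicle control and 251, 281 and 256 CPM with P4, a log2 fold change of 1.03 (SE 0.07). PDE8A measured 29.2, 25.6 and 29.6 CPM in control, 29.8 and 28.4 CPM in Nap vehicle, 33.9, 30.0 and 29.7 CPM in vehicle control and 45.4, 47.0 and 40.9 CPM with P4, a log2 fold change of 0.51 (SE 0.09). For both genes the P4 treated cultures lay above all 8 others.

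The remaining PDE4 genes had negative values with P4 against vehicle control. PDE4A measured 9.95, 10.4 and 12.2 CPM in vehicle control and 6.05, 8.16 and 7.17 CPM in P4 treated cultures, a log2 fold change of -0.63 (SE 0.15) with no overlap between these groups. PDE4B was low, with 4 to 35 counts per library, and measured 1.53, 1.03 and 1.29 CPM in vehicle control and 1.06, 0.343 and 0.915 CPM with P4. Its groups overlapped, at a log2 fold change of -0.68 (SE 0.39).

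The PKA subunits differed by far less. PRKAR1A, the main type I regulatory subunit, measured 224, 229 and 239 CPM in vehicle control and 256, 264 and 278 CPM with P4, a log2 fold change of 0.19 (SE 0.06). PRKAR2B, a type II regulatory subunit, measured 18.9, 18.8 and 19.1 CPM in vehicle control and 23.2, 22.6 and 22.9 CPM with P4, a log2 fold change of 0.26 (SE 0.09). PRKACB, a catalytic subunit, measured 54.9, 51.6 and 51.6 CPM in vehicle control and 50.9, 42.3 and 47.5 CPM with P4, a log2 fold change of -0.18 (SE 0.09). In PRKAR1A and PRKAR2B the P4 treated cultures lay above those of vehicle control, and in PRKACB below them, whereas PRKAR1A and PRKACB overlapped between P4 treated and control cultures and the lowest P4 treated value of PRKAR2B, 22.6 CPM, was next to the highest control value, 22.5 CPM.

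**Figure D2:**
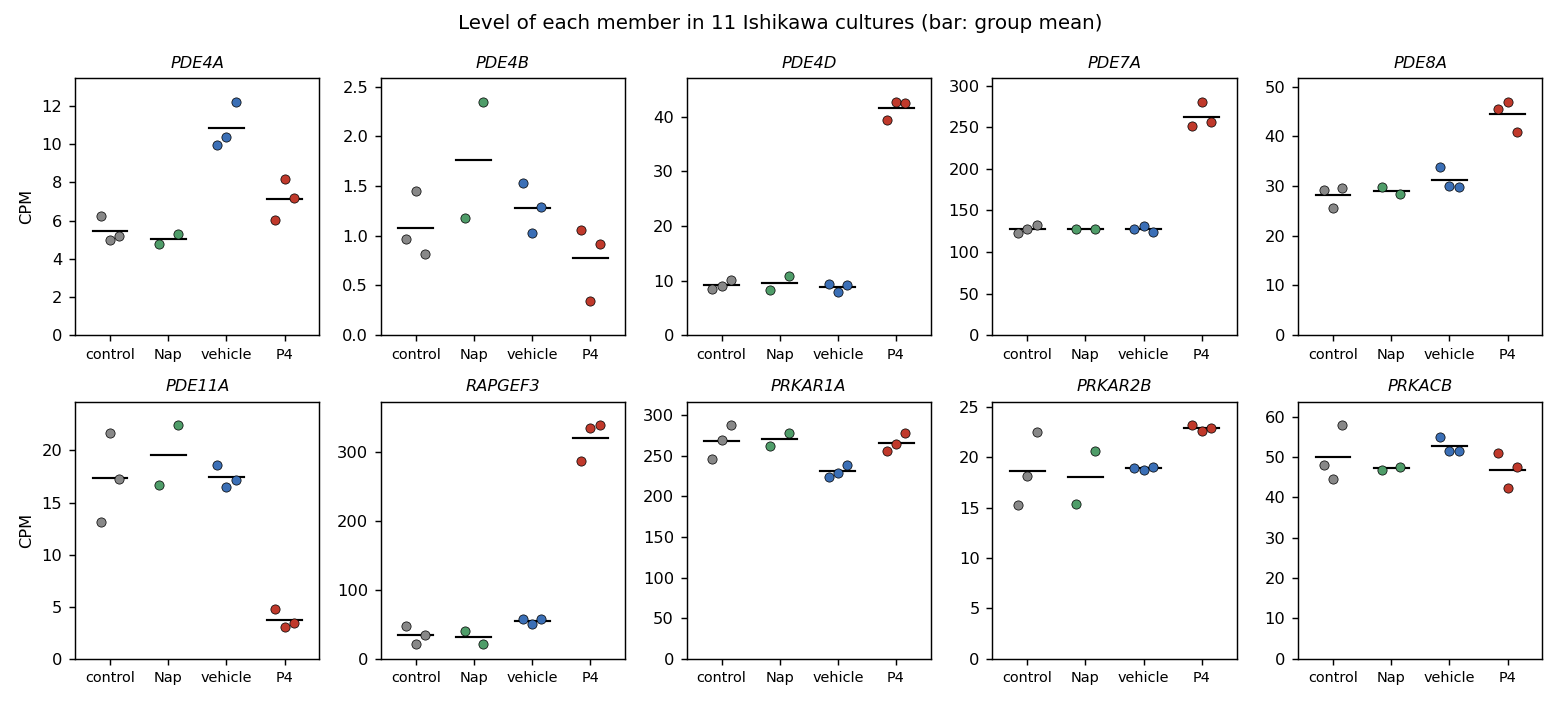
Level of each member in CPM in 11 cultures (points) with the group mean (bar), in its own panel with an axis from 0. The P4 treated points lie above all others for PDE4D, PDE7A, PDE8A, RAPGEF3 and PRKAR2B and below all others for PDE11A, and for PDE4A the vehicle control points lie highest.

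All 10 members passed the filter on low counts in every comparison. By edgeR's quasi-likelihood test at an adjusted p under 0.05, 8 of the 10 were called between P4 treated and vehicle control, 6 higher and 2 lower, and 9 of 10 did not overlap between the groups. Over all 16540 genes tested, 53% were called, 26.6% higher and 26.5% lower, and 60.3% did not overlap. The members were chosen on this comparison, so nothing is read from their count. Scaling by the upper quartile moved the median log2 fold change of all genes from -0.01 to -0.10, and under it 4 members were called higher and 3 lower.

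The vehicle control was first compared with untreated control cultures, which asks how the vehicle cultures differed from those in medium alone. PDE4A rose and PRKAR1A fell, and the other members were not called, leaving aside PDE4D and PDE11A, which are given without a test. Of all 16673 genes tested, 22.6% were called, 11.9% higher and 10.7% lower, so 2 of 10 members is a share near the background. The groups did not overlap for 4 of the 10, PDE4A, PDE8A, RAPGEF3 and PRKAR1A, against 38.9% of all genes.

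PDE4A (chr19:10416773-10469631 on the plus strand) measured 6.24, 4.99 and 5.20 CPM in control against 9.95, 10.4 and 12.2 CPM in vehicle control. The lowest vehicle control culture lay above the highest control culture, and the log2 fold change was 1.00 (SE 0.15, edgeR adjusted p = 1.1e-04). Leaving out any 1 culture, control replicate 2 included, kept the call, at 0.89 to 1.11. The Nap vehicle cultures, at 4.79 and 5.30 CPM, lay with the control cultures, and PDE4A was likewise higher in vehicle control than in Nap vehicle, by 1.12 on the log2 scale (SE 0.16, edgeR adjusted p = 4.0e-05). These comparisons share the vehicle control cultures, and so does the lower PDE4A level with P4. The P4 treated cultures lay below vehicle control and overlapped with control, at 0.36 (SE 0.18) on the log2 scale.

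PRKAR1A (chr17:68511780-68551319 on the plus strand) measured 246, 270 and 287 CPM in control and 224, 229 and 239 CPM in vehicle control, a log2 fold change of -0.21 (SE 0.07, edgeR adjusted p = 0.042). Against Nap vehicle, at 262 and 278 CPM, the log2 fold change was -0.23 (SE 0.06, edgeR adjusted p = 0.0055). The call against control was lost without control replicate 3 (adjusted p = 0.10) and without vehicle control replicate 1, 2 or 3 (adjusted p = 0.15, 0.15 and 0.096). Its P4 treated cultures, at 256 to 278 CPM, lay within the control range.

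RAPGEF3 averaged 55.6 ± 3.89 CPM in vehicle control and 35.1 ± 13.1 CPM in control, a log2 fold change of 0.66 (SE 0.32) that did not pass the test (edgeR adjusted p = 0.23). Control cultures spread from 22.0 to 48.2 CPM and Nap vehicle cultures from 21.8 to 41.0 CPM, and the lowest value in both groups was replicate 2. The call depended on single cultures: it was gained without control replicate 1, at 0.97 (adjusted p = 0.0028), and without control replicate 2, at 0.39 (adjusted p = 0.0065). Against Nap vehicle the log2 fold change was 0.83 (SE 0.32, edgeR adjusted p = 0.17). It was 1.33 without Nap vehicle replicate 1 and 0.41 without replicate 2, and each of these left 1 Nap vehicle culture with no spread of its own. Replicate 2 also held the highest PDE11A level in control and in Nap vehicle.

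For PDE4D and PDE11A the ranges of vehicle control and control overlapped. The log2 fold change was -0.06 (SE 0.14) for PDE4D and -0.01 (SE 0.15) for PDE11A. PDE7A, at 0.00 (SE 0.07), had the narrowest error among the phosphodiesterases, and PDE4B, at 0.15 (SE 0.33), the widest. PDE8A was at 0.14 (SE 0.09, edgeR adjusted p = 0.31), PRKAR2B at 0.03 (SE 0.12) and PRKACB at 0.07 (SE 0.09). Differences within these errors were not detectable here.

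Between vehicle control and Nap vehicle the same pair of members was called, PDE4A and PRKAR1A, against 23.8% of all genes. PDE11A was at -0.19 (SE 0.12), and at -0.39 without Nap vehicle replicate 1. Between Nap vehicle and control, edgeR called 0 members and 0% of all 17166 genes, and DESeq2 called 0 members and 1 gene. No member and 217 genes had an unadjusted p under 0.05 in edgeR. The member with the largest value there was PDE4B, at 0.70 (SE 0.36).

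**Figure D3:**
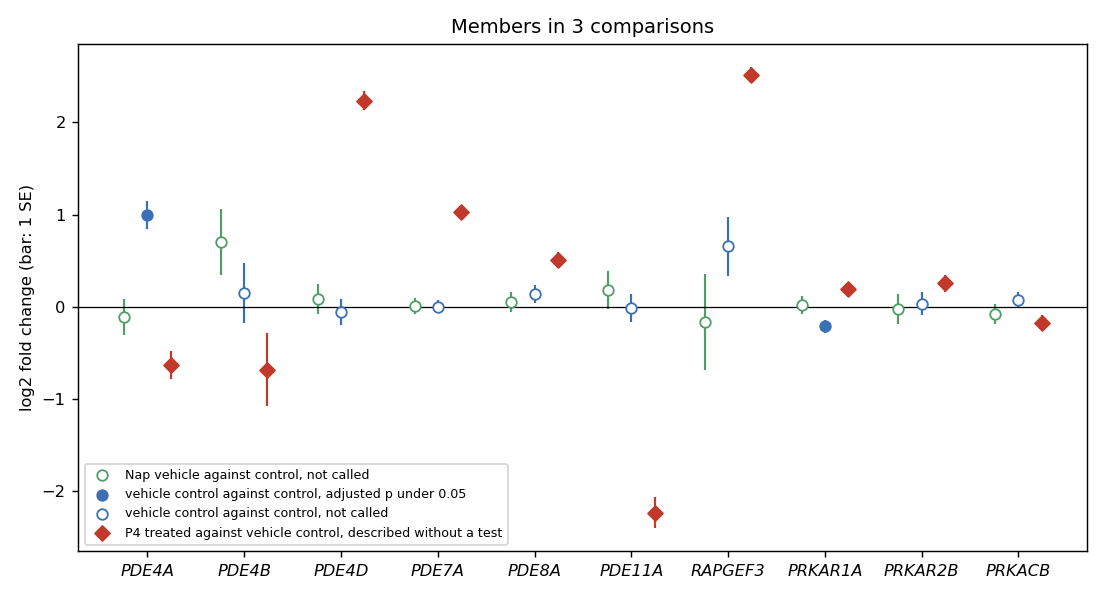
Log2 fold change of each member (points) with 1 SE (bars) for Nap vehicle against control, vehicle control against control and P4 treated against vehicle control. Filled circles mark an adjusted p under 0.05, reached by PDE4A and PRKAR1A in vehicle control against control, and diamonds mark the P4 comparison, which is described without a test and reaches from -2.23 for PDE11A to 2.52 for RAPGEF3.

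The P4 treated cultures were also set beside control and Nap vehicle, comparisons that share the P4 treated cultures with the one above. PDE4D was at 2.17 on the log2 scale against control and 2.08 against Nap vehicle, PDE11A at -2.25 and -2.42, PDE7A at 1.02 and 1.01, and PDE8A at 0.64 and 0.58. RAPGEF3 was at 3.17 (SE 0.28) and 3.33 (SE 0.23), from the lower levels of control and Nap vehicle. PRKAR1A was at -0.03 and -0.05, PRKAR2B at 0.28 and 0.31 and PRKACB at -0.12 and -0.04. PDE4B was at -0.54 (SE 0.39) and -1.24 (SE 0.45). Against control 5 of 10 members were called, with 54.8% of all genes called, and against Nap vehicle 6 of 10, with 49.7%. As these share the P4 treated cultures behind the choice of members, nothing is read from these counts.

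The rest of the pathway was read from 9 lists of 86 genes in all, none of them members. The lists were chosen with earlier results of these data known, so shares called in them are a description. Between vehicle control and control, 65 were tested, of which 20 rose and 3 fell, or 30.8% and 4.62% against 11.9% and 10.7% of all genes. Of the 20 that rose, 7 were in the list of cyclic AMP induced genes. The median log2 fold change of the 65 was 0.12 against -0.01 over all genes. Between P4 treated and vehicle control, 66 were tested, of which 25 rose and 20 fell, or 37.9% and 30.3% against 26.6% and 26.5% of all genes, with a median of 0.04 against -0.01. Between P4 treated and control, 32 of 66 tested rose and 11 fell, with a median of 0.33. Over all 16620 genes tested there, 4461 rose and 4651 fell. Between P4 treated and Nap vehicle, 33 of 67 rose and 9 fell, beside 4214 and 4232 of 16987 genes. Between Nap vehicle and control 63 were tested, with 0 called and 0 at an unadjusted p under 0.05, and DESeq2 called 0. The adjusted p-values below are from edgeR.

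Of the 6 adenylyl cyclases tested, which make cyclic AMP, 4 rose and none fell in vehicle control against control (median 0.30). ADCY1, a calcium stimulated cyclase, went from 43.3, 44.6 and 45.5 CPM to 68.3, 71.5 and 70.3 CPM, a log2 fold change of 0.66 (SE 0.07, adjusted p = 2.1e-06), and ADCY3 rose by 0.30 (SE 0.08, adjusted p = 0.0093). With P4 against vehicle control, 2 rose and 4 fell (median -0.43). ADCY9 rose by 0.60 (SE 0.08, adjusted p = 4.5e-05) and ADCY7 by 0.55 (SE 0.13, adjusted p = 0.0042), while ADCY3 was at -0.55 (SE 0.09, adjusted p = 2.3e-04) and ADCY6 at -0.48 (SE 0.08, adjusted p = 2.5e-04). Of the 5 G protein alpha subunits, which switch the cyclases on or off, none was called in vehicle control (median -0.12), and with P4 (median -0.08) the inhibitory GNAI1 rose by 0.30 (adjusted p = 0.033) and the inhibitory GNAI2 fell, at -0.50 (adjusted p = 8.4e-05). GNAS, which encodes the stimulatory subunit, was not called in either.

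Among the other phosphodiesterases, PDE7B, the relative of PDE7A, fell in both comparisons. It measured 3.66, 4.78 and 5.42 CPM in control, 2.10, 2.14 and 2.65 CPM in vehicle control and 1.06, 0.944 and 0.991 CPM with P4. The log2 fold change was -0.97 (SE 0.22, adjusted p = 0.0038) in vehicle control against control and -1.23 (SE 0.27, adjusted p = 0.0020) with P4 against vehicle control. It was the 1 gene of 8 tested that was called in vehicle control (median of the list 0.06). With P4, 3 of 9 rose and 3 fell (median 0.04). PDE3A, inhibited by cyclic GMP, went from 16.1, 16.2 and 17.2 CPM to 28.0, 31.6 and 28.0 CPM, at 0.80 (SE 0.10, adjusted p = 2.8e-05). PDE2A, stimulated by cyclic GMP, rose from 0.574, 0.737 and 0.402 CPM to 2.40, 2.23 and 3.13 CPM, at 2.14 (SE 0.33, adjusted p = 1.6e-04). PDE6B, a photoreceptor enzyme, was lower at -1.01 (SE 0.21, adjusted p = 0.0014).

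The other PKA genes included the catalytic subunit PRKACA, which was called in both comparisons. PRKACA rose in vehicle control, at 0.30 (SE 0.09, adjusted p = 0.019), the 1 of 6 called there (median -0.11). With P4 it fell from 46.9, 52.4 and 58.7 CPM to 27.9, 32.5 and 31.3 CPM, at -0.81 (SE 0.10, adjusted p = 2.5e-05). Of the genes for inhibitor peptides of PKA, PKIA fell with P4, at -0.91 (SE 0.13, adjusted p = 1.1e-04), whereas PKIB and PKIG rose, at 0.70 (adjusted p = 0.012) and 0.50 (adjusted p = 0.021). In all, 2 of 6 rose and 3 fell with P4 (median -0.25).

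Of 5 other effectors, 3 rose and none fell with P4 (median 0.55), beside the higher RAPGEF3. The Popeye domain genes BVES and POPDC3, whose products bind cyclic AMP at the membrane, rose by 0.74 (SE 0.10, adjusted p = 4.4e-05) and 0.71 (SE 0.16, adjusted p = 0.0027). RAP1A, a GTPase downstream of EPAC1, rose in vehicle control by 0.33 (SE 0.11, adjusted p = 0.031), the 1 effector of 5 called there (median 0.19). Of 11 A-kinase anchoring proteins, which hold PKA at sites in the cell, 5 rose and none fell with P4 (median 0.19), led by AKAP8L at 0.78 (SE 0.12, adjusted p = 1.5e-04) and AKAP9 at 0.67 (SE 0.10, adjusted p = 1.2e-04). In vehicle control, with a median of -0.04, 2 rose, AKAP13 at 0.34 (adjusted p = 0.0017) and AKAP11 at 0.24 (adjusted p = 0.028), and 2 fell, AKAP6 at -0.61 (adjusted p = 9.3e-04) and AKAP12 at -0.30 (adjusted p = 0.010).

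**Figure D4:**
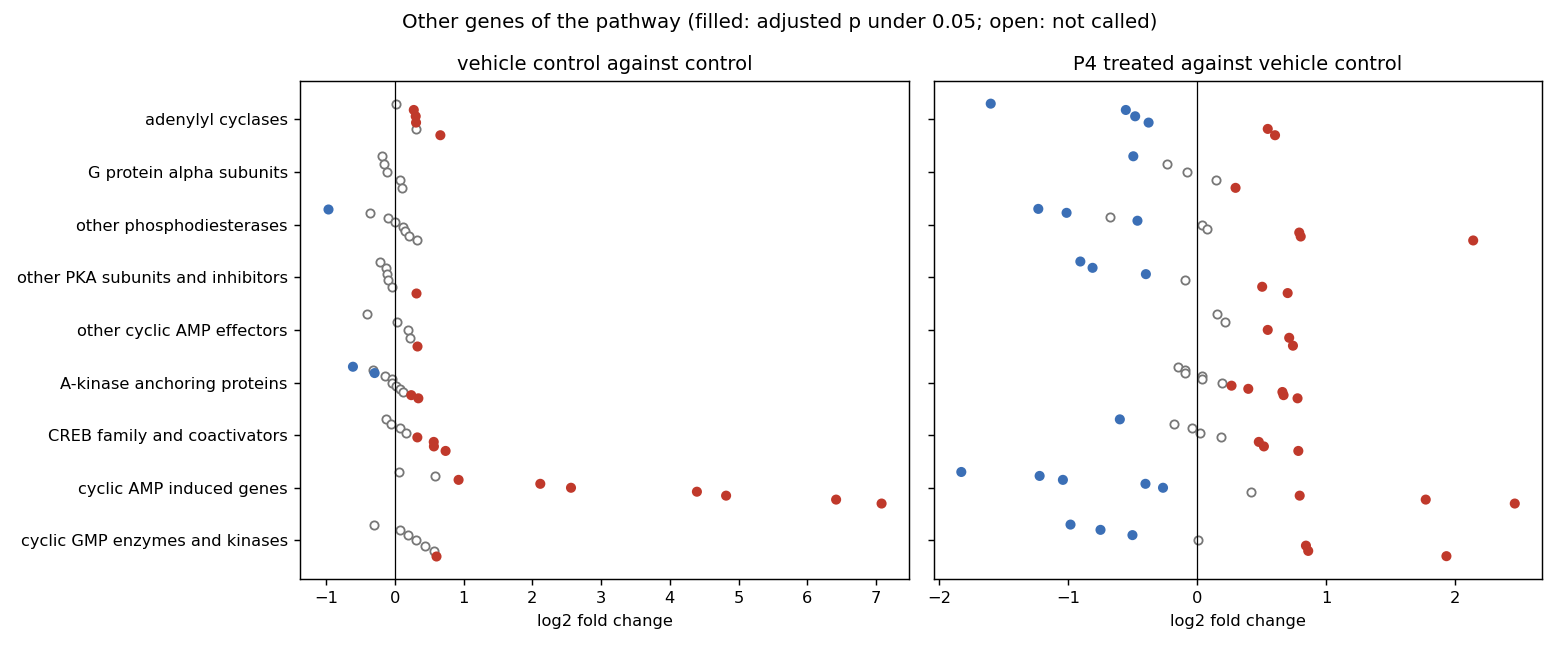
Log2 fold change of the other genes of the pathway (points) by list, for vehicle control against control on the left and P4 treated against vehicle control on the right, with filled points at an adjusted p under 0.05. The cyclic AMP induced genes reach 7.08 on the left, and on the right the lists spread to both sides of 0.

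In the CREB family and its coactivators, 4 of 8 rose and none fell in vehicle control (median 0.24). CREBBP, a histone acetyltransferase recruited by CREB, rose by 0.74 (SE 0.08, adjusted p = 1.7e-06) and CRTC3 by 0.56 (SE 0.10, adjusted p = 3.8e-04). With P4 against vehicle control 3 rose and 1 fell (median 0.10). ATF1 rose by 0.78 (SE 0.07, adjusted p = 3.0e-06) and CRTC3 by 0.48 (SE 0.11, adjusted p = 0.0024), and CRTC1 was at -0.60 (SE 0.12, adjusted p = 0.0011).

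Genes known to be induced by cyclic AMP, many of which also respond to other stimuli, showed the widest differences of the lists. In vehicle control against control 7 of 9 tested rose and none fell, with a median log2 fold change of 2.56. FOSB went from 0.377, 0.883 and 0.223 CPM to 57.8, 81.1 and 74.6 CPM, at 7.08 (SE 0.22, adjusted p = 7.1e-12). FOS went from 1.56, 1.51 and 0.966 CPM to 124, 117 and 116 CPM, at 6.42 (SE 0.12, adjusted p = 9.9e-21). Both encode subunits of the AP-1 transcription factor, and in Nap vehicle FOS measured 1.57 and 2.28 CPM and FOSB 0.550 and 0.335 CPM. Against Nap vehicle 7 of 8 tested rose in vehicle control and none fell.

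With P4 against vehicle control, 5 of these 9 genes fell and 3 rose (median -0.27). The orphan receptor genes NR4A2 and NR4A3 fell, NR4A2 from 14.5, 13.2 and 10.9 CPM to 5.67, 6.44 and 6.48 CPM, at -1.04 (SE 0.15, adjusted p = 9.2e-05), and NR4A3 at -1.22 (SE 0.23, adjusted p = 6.5e-04). The P4 treated cultures still lay above control, where NR4A2 measured 2.03 to 2.26 CPM. PPARGC1A, a coactivator of oxidative metabolism, rose from 16.6, 13.9 and 15.7 CPM to 49.7, 54.7 and 53.2 CPM, at 1.77 (SE 0.10, adjusted p = 3.9e-08), and AREG, an EGF receptor ligand, rose by 2.46 (SE 0.27, adjusted p = 1.1e-05). PPARGC1A was at 12.4 to 16.9 CPM in control and Nap vehicle, and the vehicle control lay within that range. Set against control instead, 9 of 9 tested genes of the list were called higher with P4 (median 2.99). Over all 16620 genes tested there, 4461 were called higher. Against Nap vehicle 9 of 10 were called higher (median 2.56), beside 4214 of 16987 genes. None of the list was called lower in either. PRL, a decidual marker, had 0 counts in every grouped culture.

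**Figure D5:**
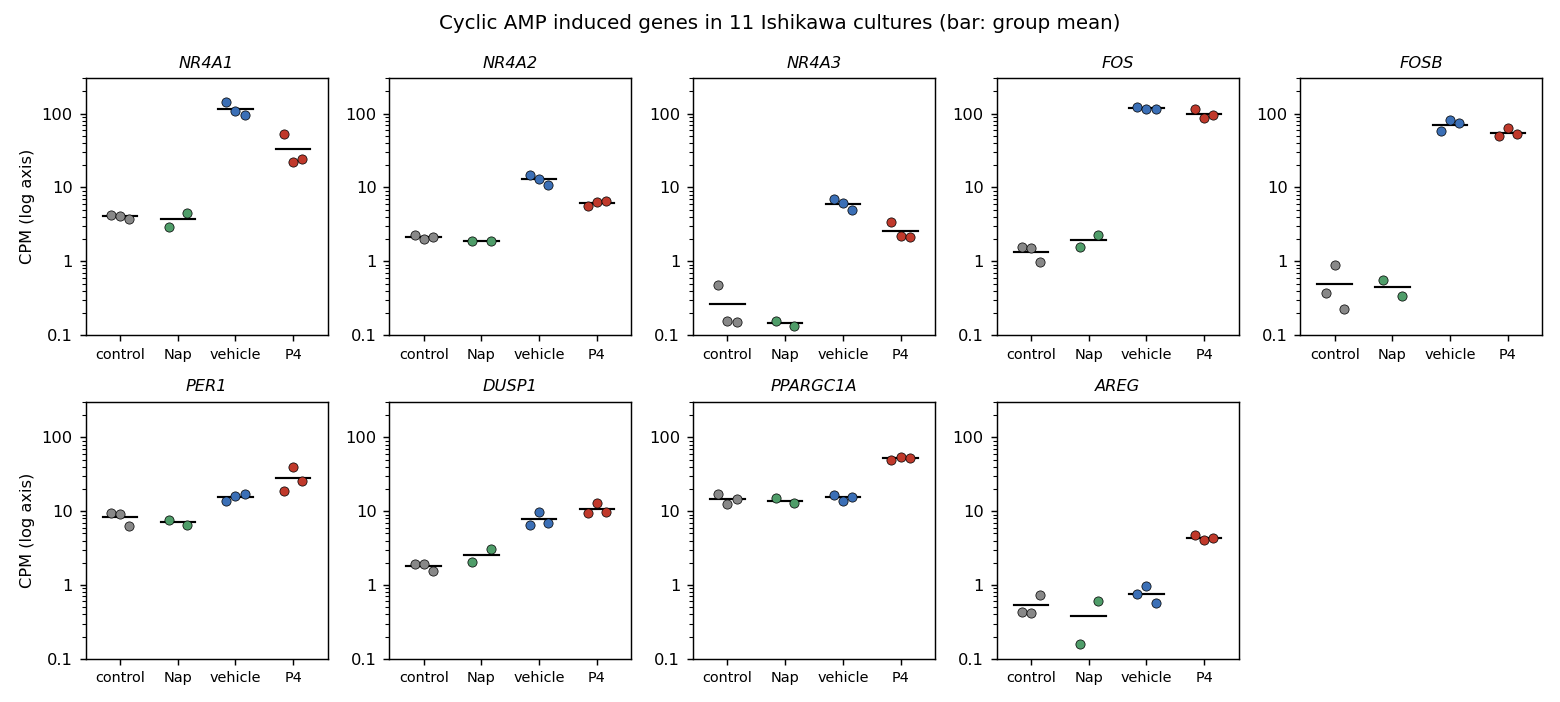
Level of the 9 tested cyclic AMP induced genes in CPM (log axis) in 11 cultures (points) with the group mean (bar). The vehicle control and P4 treated points of NR4A1, NR4A2, NR4A3, FOS and FOSB lie above all control and Nap vehicle points, and PPARGC1A and AREG are highest in the P4 treated cultures.

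In the cyclic GMP branch, whose nucleotide PDE11A also hydrolyses, 1 of 7 rose in vehicle control (median 0.31), and with P4 3 rose and 3 fell (median 0.01). PRKG1, a cyclic GMP dependent kinase, rose in both, by 0.60 (SE 0.18, adjusted p = 0.019) in vehicle control and by 0.84 (SE 0.15, adjusted p = 4.4e-04) with P4. The guanylyl cyclase subunits parted, with GUCY1A2 at 1.93 (SE 0.23, adjusted p = 2.0e-05) and GUCY1A1 at -0.75 (SE 0.24, adjusted p = 0.020) with P4. NPR2, a natriuretic peptide receptor, was at -0.98 (SE 0.25, adjusted p = 0.0059).

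To place PDE4D and PDE11A among all genes, their pattern over the 11 grouped cultures was compared with that of 12549 protein-coding genes, as the root mean square difference of centred log2(CPM + 1) values. The closest to PDE4D were CLGN (0.0894), SNTB1 (0.107) and MIA2 (0.119), and CLGN averaged 32.6 CPM in control, 30.1 CPM in vehicle control and 144 CPM with P4. The closest to PDE11A were IP6K3 (0.0891), LFNG (0.116) and SLC16A3 (0.158), and IP6K3 averaged 43.3 CPM in control, 41.9 CPM in vehicle control and 10.3 CPM with P4. With a pseudocount of 0.1 in place of 1, SLC6A20 took the place of LFNG. The measure is a description over cultures that share 4 groups and carries no test.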

How the data were processed

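RNA was sequenced from 17 Ishikawa cultures, of which 11 in 4 groups were compared here. Libraries were made with a stranded total RNA kit and read single end. The authors trimmed reads with cutadapt, aligned them with Subread and deposited raw counts per gene from featureCounts, annotated with GENCODE release 31 by the study's methods. The submitters' processing notes also name DESeq2, and the strand setting of counting is not given in the sources used here. Names, coordinates (GRCh38) and exon lengths were taken from GENCODE release 29, or from a name table for 2099 genes, and 3 of the 10 members had the same identifier version.

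From the deposited counts, edgeR 4.0.16 (R 4.3.3) was fitted to the 2 groups of each comparison, with TMM factors, filterByExpr (minimum count 10), a robust quasi-likelihood fit and Benjamini-Hochberg adjustment over all genes tested, and genes were called at an adjusted p under 0.05. The SE is the log2 fold change divided by the square root of the F statistic. CPM used TMM factors over all 17 libraries. Library totals of the grouped cultures ran from 4999521 to 19704493, and the script was tested on simulated counts. DESeq2 1.42.0, other scalings, filters, a joint fit, the replicate number as a block and leaving out each culture were alternatives. The labels call the cultures biological replicates and say no more about their separation, so p-values measure the spread between these cultures, all of 1 cell line.

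The members, lists and markers were chosen with earlier results of these data known. The text names all members, the listed markers and, per pathway list and direction in the P4 against vehicle control and vehicle control against control comparisons, the 2 called genes with the smallest adjusted p, with the 3 genes closest to PDE4D and to PDE11A. GNAS, PRL and the genes that overlap RAPGEF3 were named after their values were seen. All 17 columns of the table held counts of this series, and those of the 6 PSAT1 cultures, whose labels conflict, are given as values only.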

Additional observations from a re-analysis of the deposited data

Results flagged for a closer look

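The 6 cultures given PSAT1 entered no comparison, because the columns named R_PSAT1_P4 carry titles of PSAT1 without P4, and the columns named R_PSAT1 carry titles of PSAT1 with P4. In all 3 cultures of the columns named R_PSAT1_P4, 5 members lay above the highest of the 8 control, Nap vehicle and vehicle control cultures. The lowest of those 3 cultures was at 40.2 CPM for PDE4D (highest of the 8 others 10.9 CPM), 258.7 CPM for PDE7A (132.1 CPM), 46.4 CPM for PDE8A (33.9 CPM), 320.2 CPM for RAPGEF3 (58.2 CPM) and 22.6 CPM for PRKAR2B (22.5 CPM). For PRKAR2B the margin was small beside the spread of the control cultures, 15.2 to 22.5 CPM. These differences were not tested. The share of all genes that met the same rule was not computed, and the members were chosen on a comparison with P4. Nothing is therefore read from the number of members.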

How the results depend on the processing

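The number of members called between vehicle control and control was 2, and was 1 with upper-quartile scaling and with all 4 groups in 1 fit, where PRKAR1A was lost (adjusted p = 0.055 and 0.052); leaving out 1 culture gave 1 to 3. Between vehicle control and Nap vehicle it was 2, and was 2 with any 1 vehicle control culture left out. It was higher without either Nap vehicle culture, but each of those fits left 1 culture in that group, so their counts are not read. With all 4 groups in 1 fit the count between vehicle control and Nap vehicle was 1, where PRKAR1A was lost (edgeR adjusted p = 0.080). The ranges with 1 culture left out were 6 to 9 members for P4 treated against vehicle control, 5 to 6 against control, 5 to 8 against Nap vehicle and 0 for Nap vehicle against control. For the pathway genes they were 22 to 28 higher and 15 to 20 lower with P4 against vehicle control, and 14 to 20 higher and 2 to 4 lower in vehicle control against control. Where 1 culture was left in a group, it was assumed to vary like the other group. Why calls moved was not tested.

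Where an alternative kept more than 1 culture in each group, the values of members that changed sign were not called in either setting. PDE11A in vehicle control against Nap vehicle was -0.39 without Nap vehicle replicate 1 and 0.030 without replicate 2. PDE7A in vehicle control against control was -0.0087 by DESeq2, -0.022 with no filter and -0.025 to 0.028 with 1 culture left out, and against Nap vehicle it was -0.011 by DESeq2, -0.00075 with RLE scaling, -0.0043 with upper-quartile scaling, -0.028 with no filter, -0.010 with at least 10 counts in every sample and -0.021 to 0.023 with 1 culture left out. PDE11A in vehicle control against control was 0.0024 with upper-quartile scaling. With 1 culture left out, vehicle control against control ran from -0.19 to 0.20 for PDE11A, -0.11 to 0.022 for PDE4D, -0.094 to 0.18 for PRKAR2B and -0.0076 to 0.18 for PRKACB. Against Nap vehicle it ran from -0.94 to 0.038 for PDE4B, -0.32 to 0.049 for PDE4D, -0.39 to 0.030 for PDE11A and -0.13 to 0.28 for PRKAR2B. Nap vehicle against control ran from -0.13 to 0.26 for PDE4D, -0.021 to 0.030 for PDE7A, -0.0075 to 0.089 for PDE8A, -0.059 to 0.39 for PDE11A, -0.68 to 0.23 for RAPGEF3, -0.036 to 0.073 for PRKAR1A, -0.26 to 0.17 for PRKAR2B and -0.15 to 0.034 for PRKACB. PDE4B had no value in the vehicle control comparisons when at least 10 counts were required in every sample.

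Cultures of different groups share replicate numbers, but in the comparisons with 3 pairs same-numbered cultures did not deviate together, with correlations from -0.043 to 0.051 for P4 treated against vehicle control and from -0.0020 to 0.075 for vehicle control against control. Over the 2 pairs of Nap vehicle and control they were 0.31 and 0.35. The mean of -0.16 between different numbers is set by these, because deviations were taken from the group means, and is no separate evidence of pairing. In that comparison the block raised the genes called from 0 to 4 higher and 38 lower, with 0 members. With the replicate number as a block, 8 members were called in P4 treated against vehicle control and 5 in P4 treated against control. In vehicle control against control 3 were called, where RAPGEF3 was added (0.74, edgeR adjusted p = 0.010). The blocked counts were 3 in vehicle control against Nap vehicle, with RAPGEF3 at 0.88, and 6 in P4 treated against Nap vehicle. In Nap vehicle against control the count was 0, and the block turned PRKAR2B to 0.11 and PRKACB to 0.036. Replicate 3 had no Nap vehicle culture, so only 2 pairs carried the blocked fits with Nap vehicle, and nothing is read from their calls. The pathway counts with the block were 26 higher and 19 lower with P4, and 20 higher and 3 lower in vehicle control.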

Other observations

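In the 6 unassigned cultures, PDE4A and PRKACB overlapped between the column names, PRKACB at 41.0 to 45.7 CPM in R_PSAT1_P4 and 39.5 to 44.5 CPM in R_PSAT1. Overlap was not counted over all genes here, so nothing is read from how many members overlapped. PDE11A measured 5.01, 3.31 and 2.95 CPM in the columns named R_PSAT1_P4 (replicates 1, 2 and 3) and 13.4, 20.3 and 13.3 CPM in those named R_PSAT1. PDE4D measured 40.2, 45.8 and 42.5 CPM in the former and 8.09, 9.79 and 8.83 CPM in the latter. RAPGEF3 measured 320, 340 and 330 CPM against 44.2, 25.4 and 44.4 CPM. PDE4A, at 6.53 to 7.36 CPM and 4.78 to 6.79 CPM, was below the vehicle control cultures in all 6.

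Replicate 2 held the lowest RAPGEF3 and the highest PDE11A level among the cultures of control, of Nap vehicle and of the columns named R_PSAT1, at 22.0, 21.8 and 25.4 CPM for RAPGEF3 and 21.7, 22.4 and 20.3 CPM for PDE11A. In vehicle control, replicate 2 was lowest for both genes, at 51.1 and 16.5 CPM. COL1A2 was likewise highest in replicate 2 of control and Nap vehicle, at 464 and 466 CPM. This was noticed in the data and was not tested.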
